A study of Mus musculus with 6 samples.

Results

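The genes of the major histocompatibility complex (MHC) class I pathway that were examined here were H2-K1, H2-D1, B2m, Tap1, Tap2, Tapbp, Psmb8, Psmb9, Psmb10 and Nlrc5. They were taken by symbol from a table of 54429 genes, and 10 of 10 were found in it and were counted deeply enough to be tested. The libraries came from purchased primary aortic endothelial cells (EC) of adult C57BL/6 mice of wild-type (WT) genotype. The cells had received a lentiviral vector that overexpressed Meis1 (Meis1-OE, 3 libraries) or a control vector with YFP alone (YFP-CTRL, 3 libraries), and the comparison asked what Meis1, a homeodomain transcription factor, changed in adult EC. Cells were plated at 100000 per well, transduced for 48 h and sorted at 72 h as YFP+CD31+VEC+, so that both conditions were transduced, sorted and then expanded to confluency before RNA was taken from 300000 cells. Vector and endogenous Meis1 reads were not separated in the counts. There were 3 independent replicates per condition, and the sources used here do not state that these came from separate mice. Libraries are named here by the letters A, B and C of the deposited columns. No label states whether a shared letter pairs a Meis1-OE with a YFP-CTRL library.

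MHC class I molecules display peptides from inside the cell to cytotoxic T cells, and nearly all nucleated cells carry them. The proteasome cuts cytosolic proteins into peptides, the TAP transporter carries these into the endoplasmic reticulum, and the peptide-loading complex fits them onto a heavy chain paired with beta-2-microglobulin. EC present class I at the blood interface, and interferons raise most genes of the pathway through STAT and IRF factors and through the class I transactivator NLRC5.

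Tapbp, which encodes tapasin, the bridge between the TAP transporter and the empty class I molecule, was the single gene of the 10 that passed the test, and it rose 2.51-fold in Meis1-OE EC. The heavy chain genes H2-K1 and H2-D1, the light chain gene B2m, the transporter genes, the immunoproteasome genes and Nlrc5 did not pass. By the quasi-likelihood test of edgeR, adjusted by Benjamini-Hochberg over all 16065 genes tested, 1 of the 10 was higher at an adjusted p under 0.05, where 4.14% of all genes were higher. None was lower, where 2.73% of all genes were lower. An unadjusted edgeR p under 0.05 was found for 1 of the 10, the higher gene Tapbp, and for 4205 of all 16065 genes. With DESeq2 1 of the 10 was higher and 0 lower, where 1124 and 1115 of all genes were. The 3 Meis1-OE libraries lay above the 3 YFP-CTRL libraries for 2 of the 10, Tapbp and Psmb10, against 17.2% of all genes tested, and below them for 0, against 15.9%. The median log2 fold change of the 10 was 0.22 and 7 were positive, while the median over all genes tested was 0.010 and 50.9% were positive. When libraries were scaled by their totals alone, without the TMM factors that correct for composition, the median of all genes moved up by 0.14 on the log2 scale, 85.4% of all calls were then higher instead of 60.3%, and 9 of the 10 were positive, with H2-K1 and H2-D1 turning sign.

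**Figure D1:**
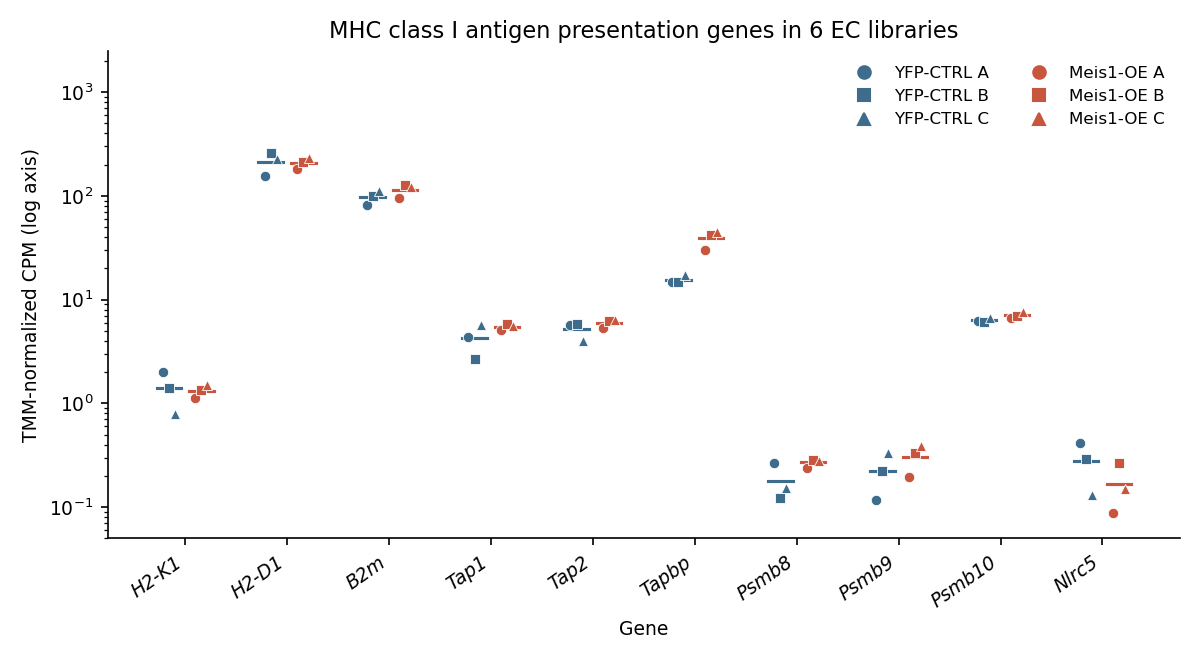
CPM (counts scaled to a common library size with TMM factors, log axis) of the 10 genes in each library, with YFP-CTRL in blue and Meis1-OE in red, a symbol for each column letter and a bar at the mean of 3 libraries. Tapbp is the gene whose groups stand clearly apart, and H2-D1 and B2m are counted far more often than H2-K1, Psmb8, Psmb9 and Nlrc5.

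Library totals ran from 34176642 to 47956605 counts, and 3 counts, taken as the limit of detection, corresponded to 0.0626 to 0.0878 CPM. Meis1 itself was counted 135325, 157828 and 149221 times in Meis1-OE EC and 39, 58 and 85 times in YFP-CTRL EC. YFP-CTRL library C stood apart from A and B in proliferation genes (mean log2(CPM + 1) of 15 genes 6.64 against 4.67 and 5.43, and 6.65 to 6.70 in Meis1-OE EC), and the log2 fold changes of the 10 genes without it are given after those with all 6 libraries. The 8 endothelial markers were all detected and summed to 3556 to 4074 CPM of the library total in Meis1-OE EC and 4210 to 5455 in YFP-CTRL EC, and 1 of the 8, Tek, was lower in edgeR (log2 fold change -0.78, standard error 0.16, adjusted p = 0.0351). With DESeq2 3 of the 8 were lower, Kdr (-1.23, adjusted p = 0.0504 in edgeR and 0.00134 in DESeq2) and Cdh5 (-0.70, 0.0535 and 0.00952) besides Tek, and each of these 3 was lower in all Meis1-OE libraries. Of 11 hematopoietic markers, 4 (C1qa, C1qb, Tyrobp and Adgre1) were at 0 in all libraries and 0 passed the test in either direction with edgeR or DESeq2, with 3 at an unadjusted p under 0.05. Their sum of 77.7 to 109 in Meis1-OE EC and 65.8 to 129.9 in YFP-CTRL EC was mostly Cd68. The 8 mesenchymal markers summed to 16.2 to 19.7 in Meis1-OE EC and 34.7 to 49.6 in YFP-CTRL EC. Most of this was Pdgfra (log2 fold change -1.47, adjusted p = 0.0598 in edgeR and 0.00140 in DESeq2), the 1 mesenchymal marker lower with DESeq2, and in YFP-CTRL library C also Acta2, at 19.8 CPM against 0.206 and 2.18 in A and B. The part of cell composition or proliferation in the differences below was not tested beyond the covariate fits given. Since the proliferation score hardly varied among Meis1-OE libraries, those fits rest mostly on the spread among YFP-CTRL libraries. In bulk RNA, fewer cells of a type and less RNA per cell cannot be told apart.

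The H2-K1 and H2-D1 genes encode the classical heavy chains, the chains that hold the peptide. H2-D1 (gene ID 14964, chr17:35263094-35267497, build GRCm38.p6) was counted at 181, 209.5 and 234 CPM in Meis1-OE EC and at 156, 259.6 and 224 CPM in YFP-CTRL EC, with libraries given throughout in the order A, B, C. The groups overlapped, with YFP-CTRL holding both the lowest and the highest value. The means were 208 ± 26.5 and 213 ± 52.7 CPM (SD, n = 3), and the log2 fold change was -0.036 (standard error 0.20, 95% interval -0.50 to 0.43, edgeR adjusted p = 0.931).

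H2-K1 (gene ID 14972, chr17:33996012-34000619, build GRCm38.p6) had 52, 61 and 69 counts in Meis1-OE EC and 68, 58 and 36 in YFP-CTRL EC, or 1.14, 1.34 and 1.49 against 2.0, 1.42 and 0.792 CPM. The Meis1-OE libraries were close together inside the wider range of YFP-CTRL. Its log2 fold change was -0.077 (standard error 0.36, 95% interval -0.92 to 0.76, edgeR adjusted p = 0.919), an interval that spans 0.53-fold to 1.70-fold. The sign turned without YFP-CTRL library A (0.24) and with a proliferation covariate (0.75, adjusted p = 0.276 from edgeR), so no direction could be given for this gene.

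Per kb of exon, H2-D1 was 157 to 160.2 times H2-K1 within Meis1-OE libraries and 78.5 to 285 times within YFP-CTRL libraries. The within-library log2 ratio of H2-K1 to H2-D1 differed between conditions by 0.017, with a two-sided p of 1 in an exact permutation test, and by 0.53 without YFP-CTRL library A, -0.083 without B and -0.40 without C, so that it had no fixed sign. Reads of class I heavy chains can be shared: 7.29% of the 50-base words of H2-K1 transcripts and 12.8% of those of H2-D1 occur in other genes, and H2-K1 words are shared most with H2-D1. Counts that were not whole numbers occurred for H2-K1 in 4 and for H2-D1 in 5 of the 6 libraries, off by at most 0.248 and 0.29. They also occurred for Tapbp in 5, Psmb10 in 3 and Tap1 in 2 libraries. From 7767 to 8411 genes per library had such counts, so they were not particular to the heavy chains. How shared reads were divided is not given in the sources used here, so the level of each heavy chain is uncertain.

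B2m, the light chain common to all class I molecules (gene ID 12010, chr2:122147687-122153082, build GRCm38.p6), was counted at 96.2, 127 and 121 CPM in Meis1-OE EC and at 82.3, 98.7 and 112 CPM in YFP-CTRL EC. The ranges overlapped, with 2 Meis1-OE libraries above all of YFP-CTRL. Its means of 115 ± 16.3 and 97.8 ± 15.0 CPM (SD, n = 3) gave a log2 fold change of 0.23 (standard error 0.16, 95% interval -0.15 to 0.61, edgeR adjusted p = 0.40). The log2 fold change was -0.0011 with the proliferation score of each library in the fit, which rests mostly on the spread among YFP-CTRL libraries. None of the 50-base words of B2m was shared with another gene.

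Levels of different genes were set side by side per kb of exon, which is a rough scale. B2m was the most abundant of the 9 genes with a length in both conditions. It was at 133 ± 19.0 CPM per kb in Meis1-OE EC and 114 ± 17.5 in YFP-CTRL EC (SD, n = 3). H2-D1 followed at 80.4 ± 10.2 and 82.4 ± 20.4 CPM per kb. Tapbp was next in Meis1-OE EC at 11.8 CPM per kb and Psmb10 followed at 5.56, and this order was the reverse in YFP-CTRL EC, where Psmb10 was at 4.96 and Tapbp at 4.72. Those 2 YFP-CTRL levels lay within the spread of the libraries. Tap2 (1.57 and 1.37), Tap1 (1.0 and 0.778) and H2-K1 (0.507 and 0.539) came next in Meis1-OE and YFP-CTRL EC, and Psmb8 (0.0984 and 0.0659) and Psmb9 (0.0834 and 0.0609) were lowest, the last pair overlapping in range. Ranges also overlapped in YFP-CTRL EC between B2m and H2-D1 and between Tap1 and H2-K1, and in Meis1-OE EC these pairs were apart. Nlrc5 had no length in the annotation used. The lengths joined the annotated exons of a gene and were longer for some genes than their coding transcripts. Tap1 had 5476 bases against 2997 distinct 50-base words in coding transcripts, and Tap2 had 3781 against 3531. The order of genes with close values, such as Tap1 and Tap2, is thus uncertain.

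Tap1 and Tap2 encode the subunits of the heterodimeric peptide transporter. Tap1 (gene ID 21354, chr17:34187556-34197225, build GRCm38.p6) was counted at 5.12, 5.81 and 5.53 CPM in Meis1-OE EC and at 4.38, 2.70 and 5.70 CPM in YFP-CTRL EC. YFP-CTRL library B was lowest and library C lay inside the Meis1-OE range. The log2 fold change was 0.36 (standard error 0.27, 95% interval -0.28 to 1.01, edgeR adjusted p = 0.436). Tap2 (gene ID 21355, chr17:34204479-34216321, build GRCm38.p6) was at 5.29, 6.19 and 6.32 CPM in Meis1-OE EC and at 5.74, 5.76 and 4.0 CPM in YFP-CTRL EC. Its ranges overlapped too, with a log2 fold change of 0.20 (standard error 0.20, 95% interval -0.27 to 0.67, edgeR adjusted p = 0.559). The within-library log2 ratio of Tap1 to Tap2 was -0.11 ± 0.075 in Meis1-OE EC and -0.32 ± 0.80 in YFP-CTRL EC (SD, n = 3, two-sided p = 0.7 in an exact permutation test). The difference of 0.21 moved to -0.17 without YFP-CTRL library B and to 0.63 without C.

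Tapasin, encoded by Tapbp (gene ID 21356, chr17:33919478-33929290, build GRCm38.p6), holds a class I molecule next to TAP and favours the binding of stable peptides. The gene was counted 1375, 1915 and 2081 times in Meis1-OE EC and 502, 602 and 782 times in YFP-CTRL EC, or at 30.1, 42.2 and 44.9 against 14.8, 14.7 and 17.2 CPM. Each Meis1-OE library was above each YFP-CTRL library, and Meis1-OE library A was the lowest of its group. The means were 39.1 ± 7.90 and 15.6 ± 1.41 CPM (SD, n = 3), a log2 fold change of 1.33 (standard error 0.18, 95% interval 0.91 to 1.74) and a 2.51-fold rise (95% interval 1.88 to 3.34), with an adjusted p of 0.00966 in edgeR's quasi-likelihood test and 5.79e-08 in DESeq2. With the proliferation score as a covariate the log2 fold change was 1.20 (edgeR adjusted p = 0.0400), and it was 1.39 (0.00256) without library C of YFP-CTRL. Without Meis1-OE library B, Meis1-OE library C or YFP-CTRL library B it was 1.27, 1.21 and 1.29 and just missed the threshold (edgeR adjusted p = 0.0649, 0.0568 and 0.05004).

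The genes beside and across Tapbp did not pass the test. Zbtb22, which ends just before Tapbp starts, was at 32.3, 33.3 and 35.2 CPM in Meis1-OE EC and at 34.4, 35.7 and 33.3 CPM in YFP-CTRL EC (log2 fold change -0.036, edgeR adjusted p = 0.865). Rgl2, which starts just after Tapbp, had a log2 fold change of 0.27 (edgeR adjusted p = 0.493). The long noncoding RNA gene Gm19412 overlaps the start of Tapbp and had 24, 27 and 15 counts in Meis1-OE EC and 2, 9 and 16 in YFP-CTRL EC (log2 fold change 1.14, edgeR adjusted p = 0.239). How reads in the shared stretch were assigned is not given in the sources used here, and their part in the Tapbp counts was not tested. These neighbours were chosen by position after the values of Tapbp were seen.

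The promoter of Tapbp is shown because it belongs to the gene that passed the test, and those of H2-D1 and B2m, chosen after the values were seen, because they belong to the abundant chains that did not. Windows of 250 bases before the annotated start were taken from RefSeq on build GRCm38.p6, all on the plus strand, at chr17:33919228-33919477 for Tapbp, chr17:35262844-35263093 for H2-D1 and chr2:122147437-122147686 for B2m, the last inside the span of the Patl2 gene. Of the Tapbp window the 152 bases from chr17:33919326 on are shown, since the bases before belong to the end of the neighbouring gene Zbtb22. Capitals mark matches, on either strand, to the IRF core AANNGAAA, to the NF-kB site GGGANNNNCC, to the NF-Y box CCAAT and to the CRE core TGACG.
Tapbp: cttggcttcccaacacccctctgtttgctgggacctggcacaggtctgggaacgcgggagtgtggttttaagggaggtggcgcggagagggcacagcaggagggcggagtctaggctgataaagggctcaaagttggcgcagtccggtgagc
H2-D1: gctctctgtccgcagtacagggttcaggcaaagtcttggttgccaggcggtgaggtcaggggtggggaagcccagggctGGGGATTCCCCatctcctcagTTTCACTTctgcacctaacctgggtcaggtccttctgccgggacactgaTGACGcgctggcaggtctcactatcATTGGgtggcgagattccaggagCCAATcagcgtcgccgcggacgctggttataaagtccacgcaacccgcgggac
B2m: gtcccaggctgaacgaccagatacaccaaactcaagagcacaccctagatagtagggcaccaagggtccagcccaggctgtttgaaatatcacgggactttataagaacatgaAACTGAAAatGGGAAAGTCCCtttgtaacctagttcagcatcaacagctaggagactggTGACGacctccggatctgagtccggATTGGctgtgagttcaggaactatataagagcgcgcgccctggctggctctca

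The whole Tapbp window held 2 CCAAT boxes, both read on the minus strand at 248 to 244 and 165 to 161 bases before the start and thus within Zbtb22, and no other of the 4 motifs, so that no capitals fall in the bases shown. The H2-D1 window held an IRF core at 150 to 143, an NF-kB site that matches on both strands at 171 to 161, a TGACG at 101 to 97 and CCAAT boxes at 76 to 72 and 53 to 49 bases before the start. The B2m window held an IRF core at 137 to 130, an NF-kB site on both strands at 127 to 117, a TGACG at 78 to 74 and a CCAAT box at 53 to 49. Of 32851 promoter windows of the same length, 21.31% held the IRF core, 17.63% the NF-kB site, 33.85% CCAAT and 17.77% TGACG. The hexamer TGACAG, bound by Meis proteins, was in 15.86% of all windows and in none of the 8 windows available for these genes, where Tap2 and Nlrc5 had none. The window of H2-K1 lay inside its own annotated gene and held the same 4 kinds of motif as that of H2-D1. Tap1 and Psmb9 are divergent and 225 bases apart, so that their windows share most bases and hold the same CCAAT box and the same TGACG, and the windows of Psmb8 and Psmb10 held none of the motifs searched. These are matches of letters and no binding was measured.

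Psmb8, Psmb9 and Psmb10 encode the immunoproteasome subunits that replace Psmb5, Psmb6 and Psmb7 in the catalytic core and shift the peptides it releases. Psmb10 (gene ID 19171, chr8:105935728-105938392, build GRCm38.p6) was counted at 6.65, 6.96 and 7.58 CPM in Meis1-OE EC and at 6.21, 6.08 and 6.60 CPM in YFP-CTRL EC. The lowest Meis1-OE library lay just above the highest YFP-CTRL library. The log2 fold change was 0.17 (standard error 0.14, 95% interval -0.17 to 0.50) and did not pass the test (edgeR adjusted p = 0.505).

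Psmb8 (gene ID 16913, chr17:34198195-34201454, build GRCm38.p6) and Psmb9 (gene ID 16912, chr17:34182030-34187330, build GRCm38.p6), neighbours of the TAP genes, were near the limit of counting. Psmb8 had 11, 13 and 13 counts in Meis1-OE EC and 9, 5 and 7 in YFP-CTRL EC. Psmb9 had 9, 15 and 18 counts in Meis1-OE EC and 4, 9 and 15 in YFP-CTRL EC. On the CPM scale both overlapped between conditions, with log2 fold changes of 0.59 (95% interval -0.34 to 1.53, edgeR adjusted p = 0.380) and 0.42 (95% interval -0.67 to 1.51, edgeR adjusted p = 0.607), and changes of up to 2.88-fold for Psmb8 and 2.85-fold for Psmb9 lay within these intervals.

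The constitutive subunits were far more abundant than their counterparts. Per kb of exon, Psmb5 exceeded Psmb8 by 291 to 354 times within Meis1-OE libraries and 466 to 893 times within YFP-CTRL libraries. Psmb6 exceeded Psmb9 by 335 to 641 times in Meis1-OE and 401 to 1083 times in YFP-CTRL libraries. Psmb7 exceeded Psmb10 by only 10.9 to 11.6 and 8.48 to 12.7 times, so that Psmb10 was the immunoproteasome gene with the highest level in these EC. The 2 sets of ranges did not overlap for Psmb5 over Psmb8 and did for the other 2 pairs. The size of these multiples depends on the exon lengths used, 922 bases for Psmb5 and 2736 for Psmb8. Coding transcripts of Psmb8 held only 1623 distinct 50-base words, and Psmb8 and Psmb9 had few counts, so the multiples are uncertain. Without lengths, mean CPM was 28.6 for Psmb5 and 0.269 for Psmb8 in Meis1-OE EC, and 36.1 and 0.180 in YFP-CTRL EC. As a log2 ratio of counts, Psmb8 to Psmb5 was -6.73 ± 0.15 in Meis1-OE EC and -7.71 ± 0.48 in YFP-CTRL EC (SD, n = 3), a difference of 0.97 with a two-sided exact permutation p of 0.1, the smallest that 3 libraries against 3 allow, and 0.6 after adjustment over the 6 ratios tested. The differences were 0.53 for Psmb9 to Psmb6 and -0.067 for Psmb10 to Psmb7, with p-values of 0.4 and 0.9 in the same exact permutation test. The Psmb9 to Psmb6 difference was 0.15 without YFP-CTRL library A, 0.87 without YFP-CTRL library C, 0.34 without Meis1-OE library C and 0.81 without Meis1-OE library A. The Psmb10 to Psmb7 difference was 0.098 without YFP-CTRL library A, -0.10 without B and -0.19 without C. Psmb5 itself was counted at 28.7, 28.1 and 29.0 CPM in Meis1-OE EC and 41.6, 36.8 and 29.9 CPM in YFP-CTRL EC (log2 fold change -0.34, edgeR adjusted p = 0.190), with YFP-CTRL library C next to the Meis1-OE libraries. Psmb6 (log2 fold change -0.014, adjusted p = 0.944) and Psmb7 (0.21, adjusted p = 0.490) did not pass edgeR's test either.

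**Figure D2:**
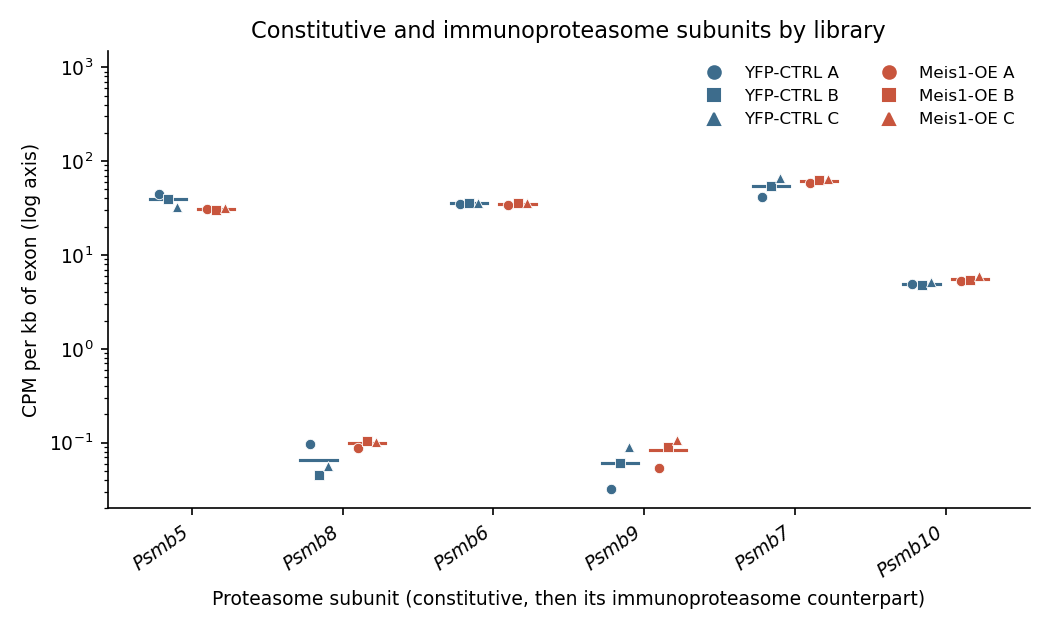
CPM per kb of exon (log axis) of each constitutive proteasome subunit and its immunoproteasome counterpart in the 6 libraries, with bars at the means of 3. On this scale Psmb8 and Psmb9 lie at least 291 times below Psmb5 and Psmb6 in every library. Psmb10 is 8.48 to 12.7 times below Psmb7, and these multiples depend on the exon lengths used.

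Nlrc5, the transactivator that switches on class I genes (gene ID 434341, chr8:94434335-94527272, build GRCm38.p6), had 4, 12 and 7 counts in Meis1-OE EC and 14, 12 and 6 in YFP-CTRL EC. The counts were low in every library and the ranges overlapped. The log2 fold change of -0.70 had a 95% interval from -2.03 to 0.63 (edgeR adjusted p = 0.470) and turned to 0.31 with the proliferation score as a covariate, so a difference of this size was not detectable at this depth.

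The log2 fold change of Tapbp stayed between 1.20 and 1.48 under 14 alternatives, the others that kept a positive sign throughout were Tap1, Tap2, Psmb8 and Psmb10, and none of the 9 other genes passed the threshold under any of these in which it was fitted. Among these 9, Tap1 came closest, with a log2 fold change of 0.63 and an edgeR adjusted p of 0.0819 without YFP-CTRL library C. Without that library the log2 fold changes of the heavy chain genes were -0.38 for H2-K1 and -0.017 for H2-D1, that of B2m was 0.33 and that of Tap2 was 0.034. Those of the immunoproteasome genes were 0.49 for Psmb8, 0.80 for Psmb9 and 0.19 for Psmb10, and that of Nlrc5 was -1.07.

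**Figure D3:**
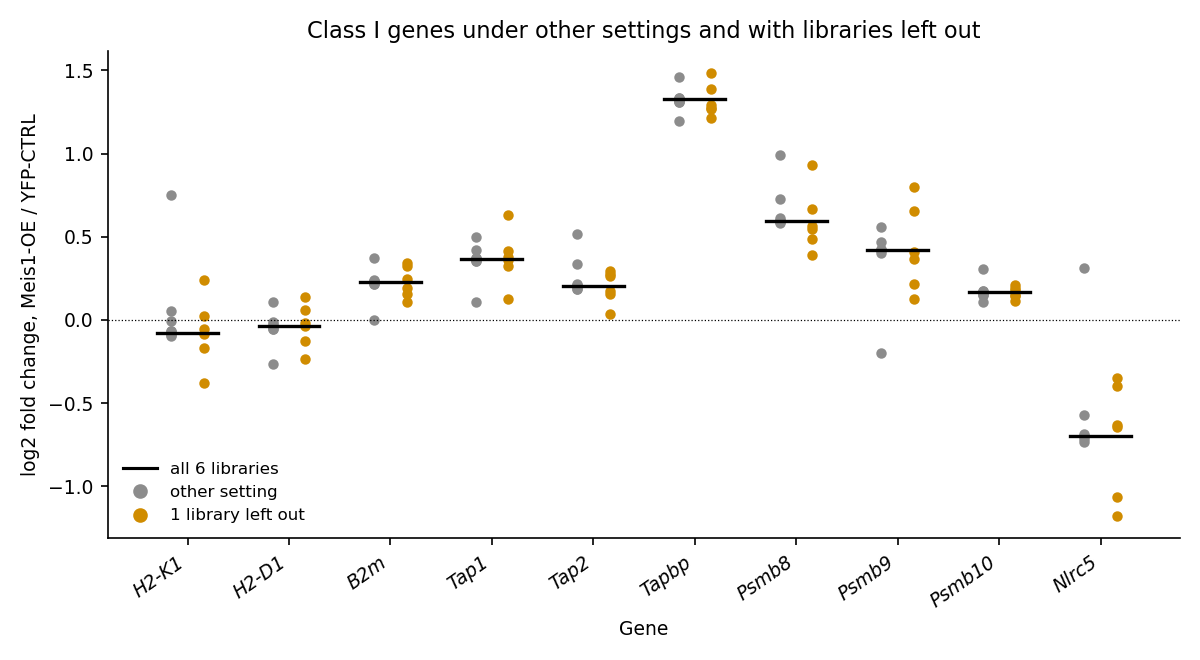
Log2 fold change (Meis1-OE over YFP-CTRL) of each gene with all 6 libraries (black bar), under other normalizations, filters, tests and covariates (grey) and with 1 library left out (orange). Tapbp stays between 1.20 and 1.48, while H2-K1, H2-D1, B2m, Psmb9 and Nlrc5 have points on both sides of 0.

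Beyond the 10 genes, 5 lists of the wider pathway held 68 genes, of which 67 were in the table and 51 were tested. Across these lists 2 genes were higher (H2-Q4 and Stat2) and 1 was lower (Jak2), where 4.14% and 2.73% of all genes tested were higher and lower, so that the counts were near the background. The median log2 fold change was 0.033. No gene of peptide supply and loading passed the test, the tapasin partners calreticulin, calnexin and Pdia3 included. On library totals 7 genes were higher and 0 lower, where 1048 and 179 of all 16065 genes were. With DESeq2 6 were higher and 2 lower, where 1124 and 1115 of all 27948 genes fitted were. Leaving out YFP-CTRL library C gave 9 higher and 8 lower, against 2717 and 2498 of all 16443 genes. With the proliferation score as a covariate 1 was higher and 0 lower, against 355 and 272 of all 16065 genes. Without Meis1-OE library B, Meis1-OE library C or YFP-CTRL library B, 0 were called in either direction. Over all genes those fits gave 115, 126 and 204 higher and 16, 18 and 66 lower.

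Of 16 genes of peptide supply and loading, 15 were tested, 7 were positive and the median log2 fold change was -0.0043. The count of calls was 0 with edgeR and 0 with DESeq2. An unadjusted edgeR p under 0.05 was found for 4205 of all 16065 genes and for 2 of these 15. These were Psmb5 and Bcap31, an exporter of class I from the endoplasmic reticulum that was at 56.4, 65.4 and 64.5 CPM in Meis1-OE EC and at 51.1, 49.1 and 48.3 CPM in YFP-CTRL EC (log2 fold change 0.33, edgeR adjusted p = 0.116). The chaperones of the loading complex were nearly level between conditions in the mean. Calr, a lectin chaperone, was at 304 ± 9.34 and 305 ± 52.2 CPM, and Pdia3, the disulfide isomerase joined to tapasin, was at 309.95 ± 26.3 and 311 ± 42.1 CPM (SD, n = 3). Their 95% intervals spanned 0.79-fold to 1.25-fold for Calr and 0.80-fold to 1.24-fold for Pdia3. Tapbpl, a peptide editor related to tapasin, had a log2 fold change of -0.13 (edgeR adjusted p = 0.813), and Erap1, which trims peptides in the endoplasmic reticulum, of -0.20 (0.628). Genes of this and the following lists other than those past the threshold, Psmb5, Psmb6, Psmb7, Irf1 and the class II genes were chosen for mention after their values were seen.

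**Figure D4:**
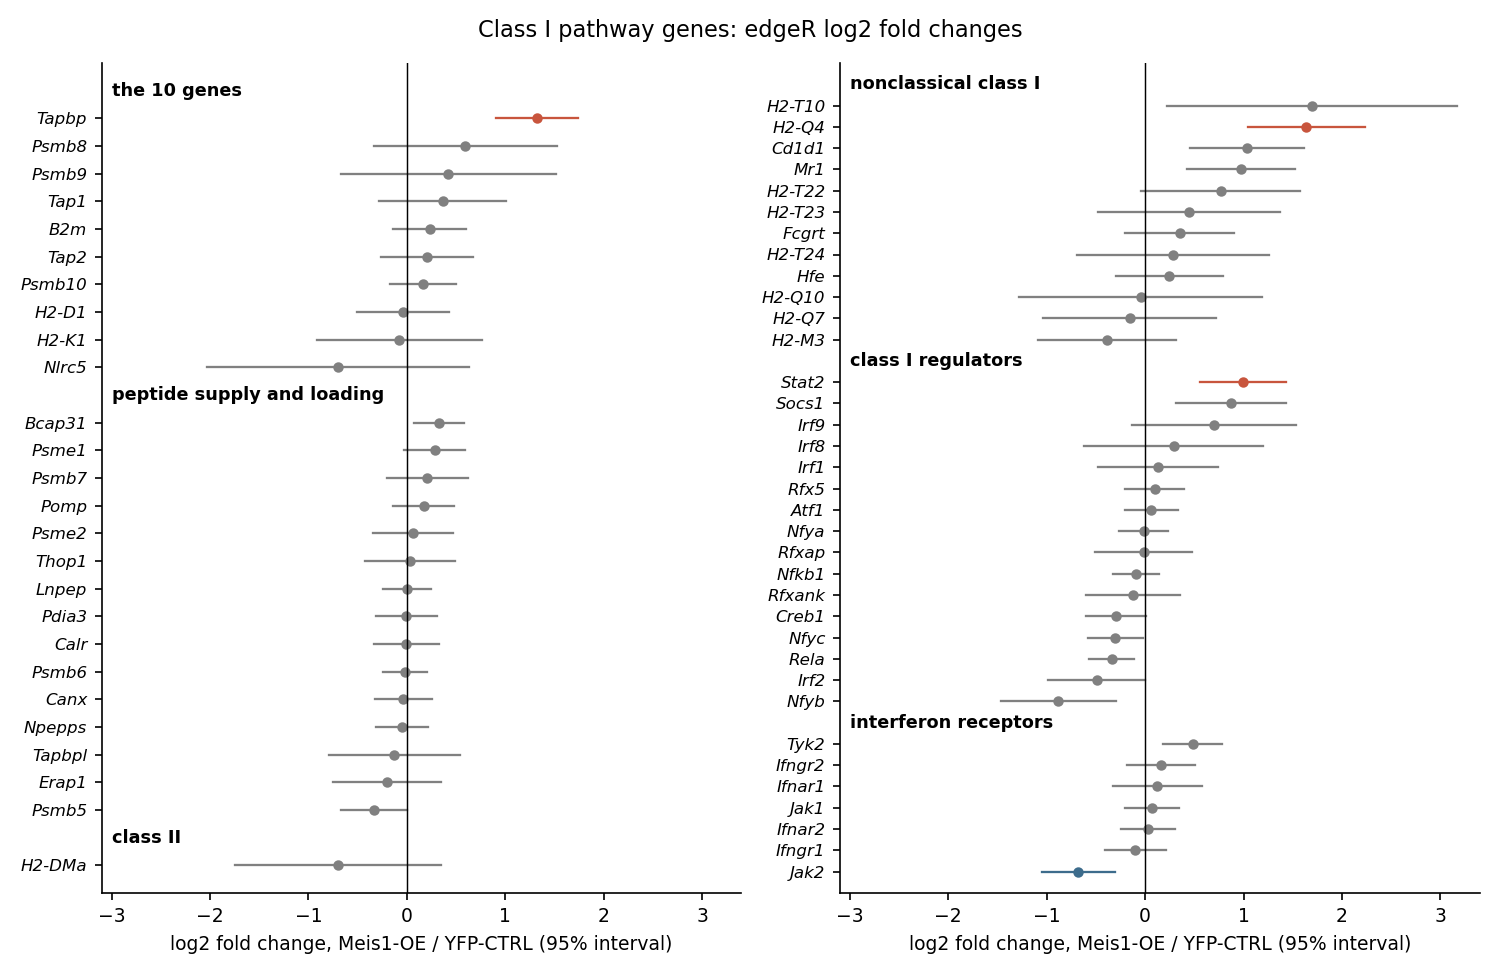
Log2 fold change (Meis1-OE over YFP-CTRL) with its 95% interval for the 10 genes and the 51 tested genes of the 5 pathway lists, red where higher, blue where lower and grey where the edgeR adjusted p was not under 0.05. Tapbp, H2-Q4 and Stat2 are red, Jak2 is blue and the peptide supply and loading genes lie around 0.

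The nonclassical and class I-like genes encode heavy chains related to H2-K1 and H2-D1, most of which also pair with beta-2-microglobulin. Of 19 listed, 18 were in the table and 12 were tested. Of these 12, 1 was higher and 0 lower with edgeR (4.14% and 2.73% of all genes tested). With DESeq2 3 were higher and 0 lower, where 1124 and 1115 of all genes were. An unadjusted edgeR p under 0.05 was found for 4 of the 12, 0 of them negative, and for 4205 of all 16065 genes. The median log2 fold change was 0.40, 9 of the 12 were positive against 50.9% of all genes tested, and 5 lay above YFP-CTRL in all Meis1-OE libraries against 17.2%. H2-Q4, a heavy chain of the Q region, was at 5.38, 7.77 and 7.90 CPM in Meis1-OE EC and at 2.35, 1.69 and 2.71 CPM in YFP-CTRL EC. No library overlapped, and the log2 fold change was 1.64 (standard error 0.25), a 3.11-fold rise (95% interval 2.07 to 4.70, edgeR adjusted p = 0.0141). With the proliferation score as a covariate (1.48, edgeR adjusted p = 0.0587) and without Meis1-OE library B (0.0866), Meis1-OE library C (0.0805) or YFP-CTRL library B (0.0545) it did not pass, and leaving out YFP-CTRL library C gave 1.79 (0.00350). Of its 50-base words 17.3% occur in other genes, so this value is uncertain.

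Mr1, which presents vitamin metabolites to MAIT cells, was at 8.26, 13.7 and 14.3 CPM in Meis1-OE EC and at 5.50, 6.05 and 6.84 CPM in YFP-CTRL EC. Its log2 fold change of 0.98 (standard error 0.23) had an adjusted p of 0.0522 in edgeR and 0.00483 in DESeq2. Cd1d1, which presents lipids to NKT cells, gave 1.03 (standard error 0.25), with 0.0522 in edgeR and 0.0169 in DESeq2. Both were higher in each Meis1-OE library than in each YFP-CTRL library and passed the threshold in DESeq2 and not in edgeR. Of the words of Cd1d1 26.6% are shared with Cd1d2, and of the words of Mr1 none is shared. H2-T22 (0.77, edgeR adjusted p = 0.208) overlapped between conditions, and H2-M3 (-0.39, edgeR adjusted p = 0.446), which presents formylated peptides, had a negative value.

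All 16 listed transcription factors and signal regulators of class I genes were tested. Of these, 1 was higher and 0 lower with edgeR (4.14% and 2.73% of all genes tested). With DESeq2 2 were higher and 1 lower, where 1124 and 1115 of all genes were. An unadjusted p under 0.05 was found for 5 of the 16, 3 of them negative, and for 4205 of all 16065 genes. Stat2, a carrier of type I interferon signals, was at 16.6, 23.03 and 23.8 CPM in Meis1-OE EC and at 11.7, 8.97 and 11.2 CPM in YFP-CTRL EC. Its groups did not overlap, and it rose 1.99-fold (95% interval 1.47 to 2.70, log2 fold change 0.99, standard error 0.19, edgeR adjusted p = 0.0266). With the proliferation score as a covariate the log2 fold change was 0.995 and the edgeR adjusted p 0.0803. Without Meis1-OE library B, Meis1-OE library C or YFP-CTRL library B the log2 fold changes were 0.93, 0.90 and 0.89 (edgeR adjusted p = 0.1501, 0.137 and 0.0915), and leaving out YFP-CTRL library C gave 1.02 (0.00937).

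Irf9, which forms a complex with Stat2, was at 10.3, 12.3 and 12.0 CPM in Meis1-OE EC and at 11.5, 5.59 and 4.18 CPM in YFP-CTRL EC. YFP-CTRL library A lay inside the Meis1-OE range, and the log2 fold change of 0.70 did not pass (edgeR adjusted p = 0.257). Irf1, the interferon-induced activator of Tap1, Psmb9 and B2m, was at 4.35, 4.91 and 4.90 CPM in Meis1-OE EC and at 6.03, 3.68 and 3.23 CPM in YFP-CTRL EC (log2 fold change 0.13, 95% interval 0.72-fold to 1.67-fold, edgeR adjusted p = 0.785). YFP-CTRL library A was the highest of the 6 for Irf1, Nlrc5 and H2-K1. It was the lowest of the 6 for B2m, Psmb9 and H2-D1, and for Tap1 it lay between YFP-CTRL libraries B and C. Socs1, a feedback inhibitor of the same kinases, was higher in each Meis1-OE library (log2 fold change 0.87) and missed the threshold in edgeR (adjusted p = 0.0725) and not in DESeq2 (0.0173). Of the factors of the promoter boxes marked above, Nfyb, a subunit of the CCAAT-binding NF-Y, had a log2 fold change of -0.88 (edgeR adjusted p = 0.0791, DESeq2 0.0152) and Rela, a subunit of NF-kB, of -0.34 (0.0795 and 0.0554). The NF-Y subunits Nfya (-0.016) and Nfyc (-0.30), the NF-kB subunit Nfkb1 (-0.091), Creb1 (-0.30) and Atf1 (0.064) passed with neither edgeR nor DESeq2. The RFX subunits Rfx5, Rfxap and Rfxank, which work with Nlrc5, lay between -0.12 and 0.096.

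Among the 7 interferon receptor chains and receptor kinases, 0 were higher and 1 was lower with edgeR (4.14% and 2.73% of all genes tested). With DESeq2 1 was higher and 1 lower, where 1124 and 1115 of all genes were. The kinase Jak2, which serves the interferon-gamma receptor, was at 22.3, 25.5 and 25.7 CPM in Meis1-OE EC and at 38.9, 46.5 and 32.4 CPM in YFP-CTRL EC. It fell by 0.68 on the log2 scale (standard error 0.16, 0.62-fold, edgeR adjusted p = 0.0483), and its adjusted p was above the threshold in 10 of 14 alternatives, up to 0.205, with log2 fold changes from -0.82 to -0.50. Each single library left out except YFP-CTRL library C ended the call (edgeR adjusted p from 0.0749 to 0.205), and without that library it was -0.82 (0.00430). Tyk2, a kinase of the type I interferon receptor, was at 37.0, 34.4 and 36.1 CPM in Meis1-OE EC and at 23.7, 23.9 and 29.3 CPM in YFP-CTRL EC (log2 fold change 0.48, adjusted p = 0.0679 in edgeR and 0.0342 in DESeq2). The receptor chains Ifngr1, Ifngr2, Ifnar1 and Ifnar2 lay between -0.10 and 0.16 on the log2 scale and overlapped between conditions.

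**Figure D5:**
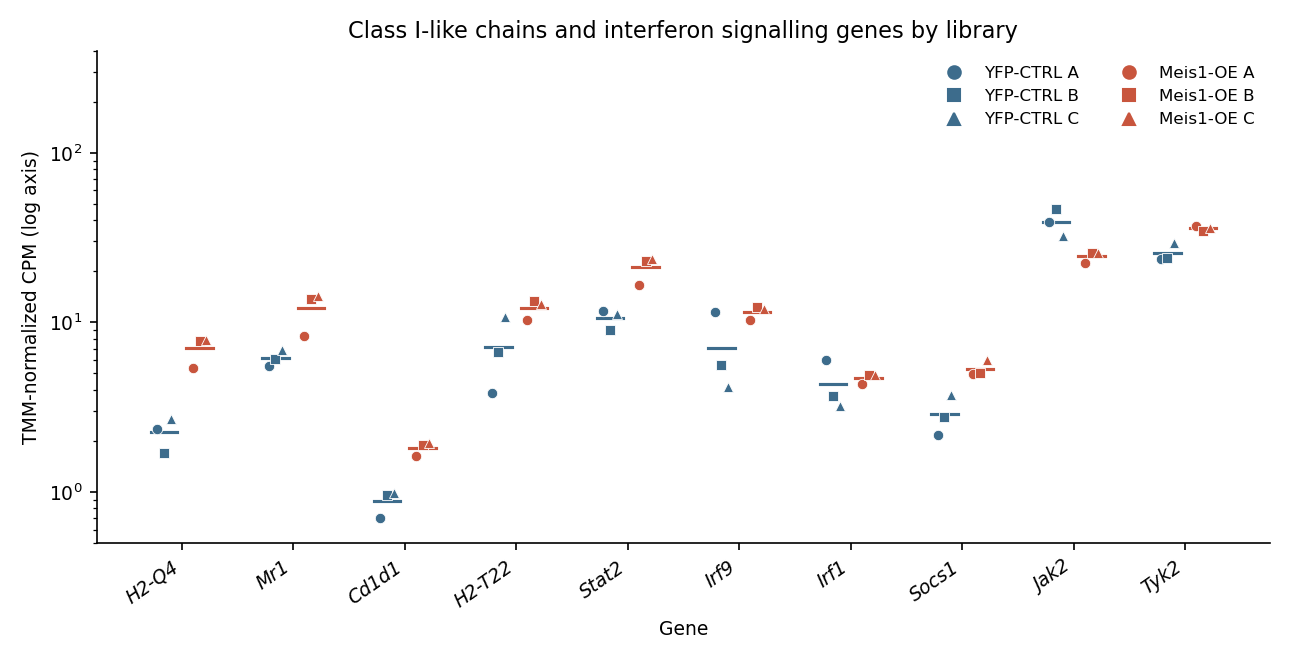
TMM-normalized CPM (log axis) of class I-like chains and of interferon signalling genes in the 6 libraries, with bars at the means of 3. H2-Q4 and Stat2 lie higher in every Meis1-OE library and Jak2 lower, while H2-T22, Irf9 and Irf1 overlap between the conditions.

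MHC class II presentation, which is confined to professional antigen-presenting cells unless interferon-gamma induces it, was near or at 0. Of 10 class II pathway genes, 7 never exceeded 3 counts, and 3 of these 7 had no count in any library. Only 1, H2-DMa, with 13 to 34 counts, was tested (log2 fold change -0.70, edgeR adjusted p = 0.358, DESeq2 0.456). H2-Aa was at 0 in all libraries, Ciita, the class II transactivator, and H2-Ab1 had at most 1 count, H2-Eb1 at most 2 and the invariant chain Cd74 at most 3. These values are at or under the limit that 3 counts set, so no change in them was detectable.

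The profiles most like those of 4 of the genes over the 6 libraries were sought among 10221 genes with a mean of at least 5 CPM, by the root-mean-square difference of centred log2(CPM + 1). For B2m they were 5031425E22Rik, Dnajc19 and Lman1 (0.0465, 0.0481 and 0.0499, where B2m itself ranged over 0.62). For H2-K1 they were Tmem87b, Zfand5 and Zfp654 (0.0367, 0.0437 and 0.0511, range 0.74), and for Tap1 Vash2, Ino80b and Gcfc2 (0.0640, 0.0669 and 0.0674, range 0.88). None was a gene of the lists above. For Nlrc5 they were Ddx50, Cdc73 and AU022252 (0.0337, 0.0359 and 0.0374), a profile flattened by the pseudocount of 1 since Nlrc5 stayed under 0.5 CPM. The pseudocount also narrowed the profile of H2-K1, which lay at 0.792 to 2.0 CPM.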

How the data were processed

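RNA was ribodepleted and sequenced by the study from 300 to 400 ng of total RNA per sample. The authors deposited estimated counts per gene, which need not be whole, in 1 table for 6 libraries, without normalization. The study names DESeq2 for its own comparison, and the submitters' processing notes name build mm10. The aligner and the counting tool are not given in the sources used here, and counting is not stated to use strand. No column was left out (0 of another series).

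Counts were rounded and fitted in edgeR 4.0.16 (R 4.3.3, limma 3.58.1) with TMM factors, filterByExpr (minimum count 10) and the quasi-likelihood test, with Benjamini-Hochberg adjustment over 16065 genes and a threshold of 0.05. The biological coefficient of variation was 0.233. Standard errors and 95% intervals came from the F statistic. DESeq2 1.42.0 was an alternative. The fits were tested on simulated data. Single ratios had exact two-sided permutation tests over libraries. These intervals and the p-values measure the spread between these cultures, and floors of 3 counts cover counting error only. Exon lengths and shared 50-base words came from GENCODE gene models of build NCBIM37, matched by symbol (9 of 10 genes). Promoters (8 of 10 genes), gene IDs and positions came from RefSeq GRCm38.p6, the primary assembly that mm10 names. Figures used matplotlib 3.10.9 in Python 3.11.15.

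The genes, lists, tests and alternatives were chosen with earlier results of these data known. Named were the 10 genes, every pathway gene past the threshold, Psmb5, Psmb6, Psmb7, Irf1, Ciita, H2-Aa, H2-Ab1, H2-Eb1 and Cd74, and the 3 nearest profiles of H2-K1, B2m, Tap1 and Nlrc5. Some genes of the lists are not reported here and were left out of the list counts after the fit.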

Additional observations from a re-analysis of the deposited data

How the results depend on the processing

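Of the 10 genes, 1 was higher and 0 lower with every normalization, filter, test and covariate tried and at thresholds of 0.1 and 0.01, and 0 to 1 were higher when single libraries were left out (0 without Meis1-OE library B, Meis1-OE library C or YFP-CTRL library B). Over the 10 genes, 124 of the alternative log2 fold changes kept their sign and side of the threshold, 3 lost the call, all of Tapbp, and 10 changed sign. Those 10 were H2-K1 on library totals (0.052), with the proliferation score as a covariate (0.75) and without Meis1-OE library A (0.022) or YFP-CTRL library A (0.24), H2-D1 on library totals (0.11) and without Meis1-OE library A (0.057) or YFP-CTRL library B (0.14), and, with the covariate, B2m (-0.0011), Psmb9 (-0.20) and Nlrc5 (0.31). With single libraries left out, H2-K1 ranged from -0.38 to 0.24 and H2-D1 from -0.24 to 0.14. Apart from the shift of all genes on library totals, the cause was not tested. With at least 10 counts in every library, Psmb8, Psmb9 and Nlrc5 could not be fitted. Pathway genes called were 2 higher and 1 lower in the report, 7 and 0 on library totals, 6 and 2 with DESeq2, 1 and 0 with the covariate, 3 and 0 without a filter and with at least 10 counts in every library, and 0 to 9 and 0 to 8 with single libraries left out. Over all genes, 665 were higher and 438 lower, 1048 and 179 on library totals, 1124 and 1115 with DESeq2, 355 and 272 with the covariate, and 115 to 2717 and 16 to 2498 with single libraries left out. No label states whether libraries with the same column letter were paired. Deviations of same-letter libraries correlated at 0.27 for A, 0.12 for B and 0.070 for C, and those of different letters at -0.27 to 0.21. With the letter as a replicate block, Tapbp was called (1.31, edgeR adjusted p = 0.0183), pathway genes called were 1 higher (H2-Q4) and 0 lower, Stat2 missing the threshold (0.99, edgeR adjusted p = 0.0603), and all genes called were 544 higher and 189 lower. Depth limited Psmb8, Psmb9 and Nlrc5, with 18 counts or fewer in any library.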
